A study of Mus musculus with 27 samples.

Results

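The members described here are the contacts of a deleted boundary interval in wild-type mouse testis. They are all pairs of 10 kb bins with 1 bin in chr4:107710001-107740000, the span affected by the deletion, and the other elsewhere in the captured region chr4:102820001-110380000. This choice gave 2259 of the 285390 bin pairs of the region. In all 3 wild-type libraries 2020 of them held a contact, and 4 held none in any of these libraries. Capture Hi-C ligates pieces of chromatin that touch inside the nucleus, and probes then pull out the ligated pieces of chosen regions for sequencing. The series holds 27 testis samples from a study of mice in which CRISPR-Cas9 removed a boundary between topologically associating domains (TADs), and 6 of them are capture Hi-C libraries. The 3 wild-type libraries (genotype Wild-type) give the results, and the 3 libraries homozygous for the deletion (genotype B396.BOS_hom_KO) were used to check that the contacts disappear. A regression table deposited by the authors is also cited. It rests on 9 RNA-seq samples: 3 wild type, 3 heterozygous and 3 homozygous for the deletion. Strain, age and any pooling of animals are not given in the sources used here. Nothing says that libraries of a group came from separate animals, so p-values measure the spread between these libraries, which may be technical. Whole testis holds germ cells of many stages with somatic cells, so each count is a sum over all of them.

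TADs are stretches of a chromosome whose parts meet each other more often than they meet the neighbouring stretch, and a boundary is the place where contact preference changes. Many boundaries bind CTCF and cohesin, which hold loops that start or end at the boundary. A viewpoint close to a boundary is therefore often read by which of its flanks it contacts more. Here the flank towards lower coordinates is called left. It holds Dmrtb1, a DM-domain transcription factor of the switch from mitosis to meiosis in male germ cells, and Glis1, a Krüppel-like zinc finger transcription factor. The right flank holds Lrp8, a receptor for reelin and apolipoprotein E, followed by Magoh, a core subunit of the exon junction complex, and Cpt2, a carnitine palmitoyltransferase of mitochondrial fatty acid oxidation. The long non-coding RNA gene 1700047F07Rik is the only gene of the RefSeq table over the span and runs from 107689600 to 107744284, beyond both of its ends.

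The sequences around 3 transcription starts are shown. Glis1 stands for the highest left partner in the core, the highly covered part of the region, against the distance expectation. The others are the first Lrp8 start on the favoured right flank and the start of 1700047F07Rik, the lncRNA that crosses the span. All 3 are RefSeq sequences of GRCm38.p6 on the plus strand, each covering 250 bases before and 50 from the start. Capitals mark CG.

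Glis1, chr4:107434469-107434768: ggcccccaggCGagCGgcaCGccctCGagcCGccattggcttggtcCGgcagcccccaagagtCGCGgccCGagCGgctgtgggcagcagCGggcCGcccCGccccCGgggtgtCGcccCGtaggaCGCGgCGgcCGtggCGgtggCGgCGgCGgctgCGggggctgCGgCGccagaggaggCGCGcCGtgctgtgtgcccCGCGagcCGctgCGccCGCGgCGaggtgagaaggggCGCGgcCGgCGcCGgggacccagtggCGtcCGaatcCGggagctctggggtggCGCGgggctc
Lrp8, chr4:107802635-107802934: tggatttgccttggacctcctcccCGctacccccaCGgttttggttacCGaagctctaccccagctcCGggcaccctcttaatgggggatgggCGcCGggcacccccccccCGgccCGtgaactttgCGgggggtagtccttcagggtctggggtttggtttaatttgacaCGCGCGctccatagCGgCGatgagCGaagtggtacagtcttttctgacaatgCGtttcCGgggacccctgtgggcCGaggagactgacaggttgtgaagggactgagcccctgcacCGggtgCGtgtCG
1700047F07Rik, chr4:107689350-107689649: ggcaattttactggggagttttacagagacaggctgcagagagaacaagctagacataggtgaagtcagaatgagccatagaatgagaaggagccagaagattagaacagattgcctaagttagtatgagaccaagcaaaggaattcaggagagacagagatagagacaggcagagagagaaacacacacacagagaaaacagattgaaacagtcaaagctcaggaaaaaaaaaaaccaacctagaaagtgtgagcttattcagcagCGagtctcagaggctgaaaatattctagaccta

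The Glis1 window holds 47 CG, the Lrp8 window 21 and the 1700047F07Rik window 1, against a median of 7 over 32851 windows of the same length. Windows with at least as many CG made up 1.44% of all windows for Glis1, 24.8% for Lrp8 and 94.6% for 1700047F07Rik. The span's own sequence was not used here.

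Depth ran from 6095669 to 7321442 contacts in wild type, and from 5669898 to 7794641 in homozygotes. Between 11.9% and 17.2% of a library lay in the region. Coverage is uneven: a core of 85 bins, chr4:107110001-107960000, stood out from its surroundings, with 60 bins left and 22 bins right of the span. The span had 27327, 42546 and 34844 wild-type contacts with the rest of the region. Core bins on the left took 32.6% ± 0.654 of them (SD, n = 3) and core bins on the right 30.7% ± 1.21 (SD, n = 3). The left part of the core is 600 kb long and the right part 220 kb, and these shares are not corrected for distance. The bin next to the span took 6.19% ± 0.540 on the left and 6.91% ± 0.388 on the right (SD, n = 3).

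The first question was which flank the interval contacts more. Within 200 kb the span had 5494 left and 7899 right contacts in replicate 1, 8753 and 13332 in replicate 2, and 7380 and 10273 in replicate 3. The right flank was higher in 3 of 3 libraries. For the whole span the flanks mirror each other in distance, so their difference needs no distance correction. Each level is given as the log2 ratio of observed contacts to those expected from other pairs at the same distance. The left flank was at -0.38 ± 0.06 and the right flank at 0.16 ± 0.01 (SD, n = 3). Left minus right was -0.52, -0.61 and -0.48 in the 3 libraries, with a mean of -0.54 ± 0.07 (SD, n = 3), or 1.45-fold. It exceeded the spread between libraries, with a two-sided exact sign-flip p of 0.25, the smallest that 3 libraries allow. Part of it moved with coverage of the bins. With the expectation multiplied by the relative totals of both bins, left minus right was -0.30 ± 0.04 (SD, n = 3), with the left flank at -0.23 and the right flank at 0.07. On simulated data this expectation kept the difference between flanks and shifted the level of both downwards. The simulated data held only a core with flanks of 200 kb inside it, so they do not cover differences that reach outside the core. Here and below a level, sign or call under relative totals is a description that depends on such a shift. Only differences between values under relative totals are compared, and those reaching outside the core are descriptions too.

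Each of the 3 bins of the span leaned to the right against the distance expectation, measured with the flanks of the whole span. The left bin, which is only partly deleted in homozygotes, was at -0.48 ± 0.05, the middle bin at -0.44 ± 0.06 and the right bin at -0.54 ± 0.04 for left minus right (SD, n = 3). Their levels differed more than their balance. The right bin was at 0.37 with the right flank, whereas the middle bin was at -0.26 with that flank and at -0.70 with the left flank. Bin totals moved the same way: the middle bin had 6351, 9814 and 8128 contacts outside the span and the right bin 10949, 18311 and 14188. After relative totals the right-flank values of the left, middle and right bins were 0.07, 0.09 and 0.06, and their left minus right was -0.31, -0.24 and -0.33.

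**Figure D1:**
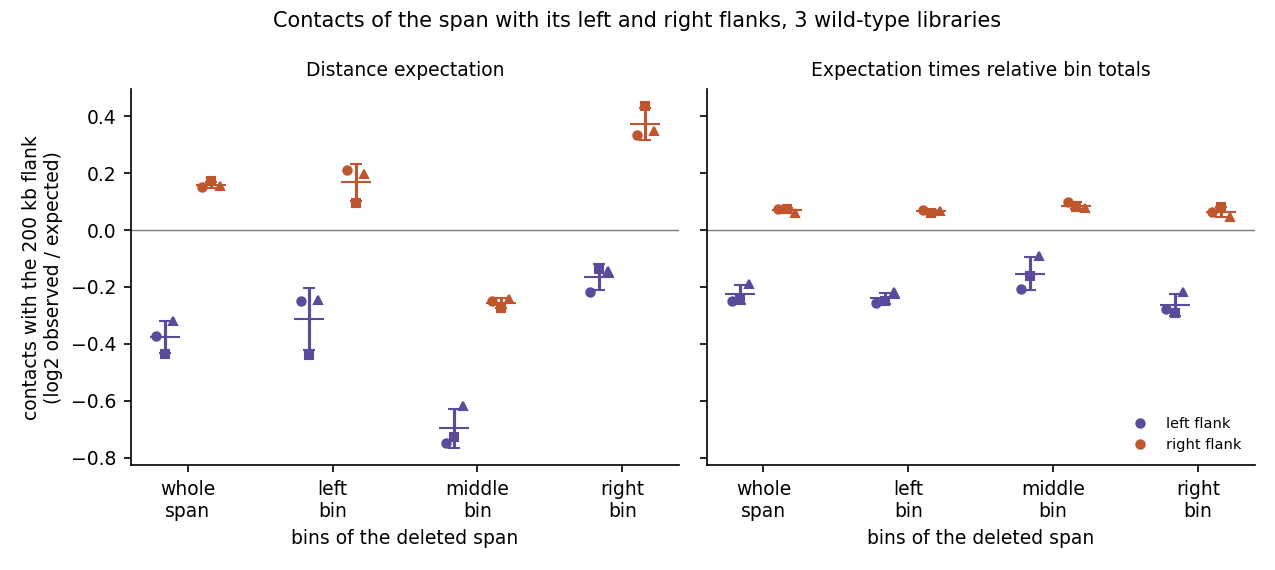
Log2 observed over expected contacts of the whole span and of each of its bins with the 200 kb flank on the left and on the right; symbols are the 3 wild-type libraries (circle, square and triangle for replicates 1 to 3), horizontal marks are means and bars are SD. In both panels the right flank lies above the left flank for every bin; the middle bin is lower on both sides in the left panel only.

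The lean to the right held over the first 200 kb and not farther out. At 10 to 50 kb the left flank was at -0.42 ± 0.13 and the right flank at -0.01 ± 0.03 (SD, n = 3). At 60 to 100 kb they were at -0.48 ± 0.07 and 0.33 ± 0.03, a difference of -0.80 and the largest of the 6 distance classes. At 110 to 200 kb they were at -0.20 ± 0.04 and 0.37 ± 0.01, a difference of -0.57. From 210 to 400 kb left minus right was 0.12, from 410 to 600 kb 0.20 and above 600 kb 0.18, so the left side was the higher there in every library. All 6 classes had an exact sign-flip p of 0.25, and 0.25 after adjustment over the 6. With relative totals the nearest class shrank to -0.09, the classes of 60 to 100 and 110 to 200 kb stayed at -0.50 and -0.57, and the 2 farthest turned to -0.31 and -0.24. Beyond 220 kb the right partners lie outside the core, so the sides are compared there across bins of very different coverage. Such pairs were not part of the simulation.

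Bin by bin, the 5 highest right partners in the core all lay in Lrp8. The highest, chr4:107840001-107850000, is 100 kb from the span, inside the gene and without a start in the promoter table. It had 385, 699 and 492 contacts with the span. Its log2 observed over expected was 0.94, 1.09 and 0.96, a mean of 0.99 ± 0.08 (SD, n = 3), and 0.77 ± 0.05 with relative totals. The bins from 107820001, 107850001, 107830001 and 107800001 followed at 0.75, 0.67, 0.58 and 0.56. The 3 Lrp8 starts of the promoter table fall into the bins from 107800001, 107820001 and 107830001. The lowest right bins were those from 107950001 at -0.48, over 4930407G08Rik, and from 107910001 and 107900001 at -0.40 and -0.24, over Cpt2. Relative totals moved the bin from 107950001 to 0.47, and its total of 8902 was the lowest of the 22 right bins (median 17242).

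Left partners in the core reached lower maxima. The highest against the distance expectation, chr4:107430001-107440000, holds the Glis1 start of the promoter table and the small protein-coding gene Gm46866, and lies 270 kb away; the Glis1 gene itself begins in the bin to its left, at 107426636. It had 131, 213 and 176 contacts, at 0.47 ± 0.08 (SD, n = 3), and at 0.32 ± 0.10 with relative totals. The bin beside it within Glis1, from 107440001, was at 0.39 ± 0.21 (SD, n = 3). The other high left bins were those from 107110001 (Cdcp2, at the edge of the core) at 0.26, 107490001 (Glis1) at 0.20 and 107170001 (Tceanc2 and Tmem59) at 0.14. With relative totals the order changed: the bin from 107110001 was at 0.68 ± 0.16 (SD, n = 3), above the Glis1 start bin, and the bins from 107490001 and 107170001 were both at -0.01. The 3 lowest were those from 107660001 at -1.65, 107640001 at -1.29 and 107690001 at -1.13. They are bins of low coverage, with totals of 6042, 8334 and 9089 against a left median of 16050, and relative totals brought them to -0.22, -0.31 and -0.26. Over the core, 6 of 60 left bins were above expectation in all 3 libraries and 27 below, while on the right 13 of 22 were above and 6 below. With relative totals the counts were 15 and 23 on the left, and 16 and 3 on the right.

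**Figure D2:**
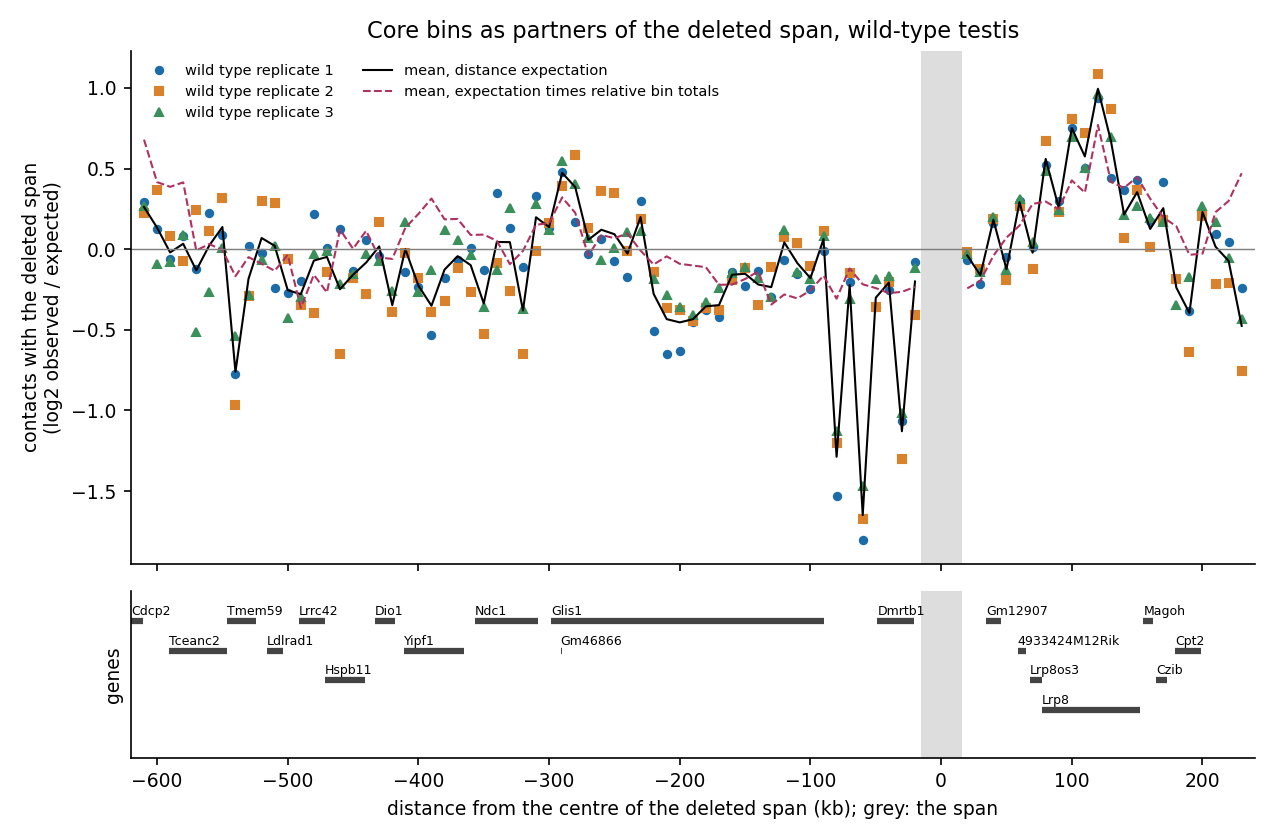
Log2 observed over expected contacts of each core bin with the span against its distance from the centre of the span; points are the 3 wild-type libraries, the solid line is their mean and the dashed line the mean with relative bin totals, and the lower strip shows the genes. The peak on the right lies over Lrp8 with its maximum of 0.99, and the sharp dips on the left, down to -1.65, are not seen in the dashed line.

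Single pairs were then tested across the region with edgeR's quasi-likelihood test against the distance expectation. A pair was called when its Benjamini-Hochberg adjusted p was below 0.05 and its log2 ratio at least 0.5 in size. Of the 30871 pairs that averaged 5 or more contacts, 13.2% were called higher and 4.85% lower. Of the 2259 members 1196 passed the count filter, which outside the core keeps only pairs that reached it, so calls are read within the core, where all 246 members passed. In the core 8.61% of 3567 pairs were called higher and 15.5% lower. Of the 66 pairs between the span and the right of the core 16 were called higher (24.2%) and 9 lower (13.6%). Of the 180 pairs with the left of the core 3 were called higher (1.67%) and 34 lower (18.9%). The share called lower lies near the background on both sides. Against the distance expectation, the share called higher lies above it on the right and below it on the left. The background pools core pairs of all distances, and no share matched for distance was taken.

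The calls followed the bins of the span. On the right of the core, the right bin had 12 higher and 0 lower calls, the left bin 4 and 1, and the middle bin 0 and 8. With relative totals 3.67% of core pairs were called higher and 1.46% lower. Then 7 of the 66 right pairs were higher (10.6%) and 0 lower, and 8 of the 180 left pairs were higher (4.44%) and 1 lower. The left share called higher was thus no longer below the background. Of the 8 left pairs, 6 joined the span with the bins from 107110001 to 107150000 at the edge of the core, and 1 joined the middle bin with the Glis1 start bin.

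The right bin of the span with the Lrp8 bin chr4:107840001-107850000 was the highest core pair of the span. It had 193, 395 and 270 contacts, at a log2 of 1.62 (edgeR adjusted p 2.86e-35), and 1.11 with relative totals (edgeR adjusted p 1.24e-39). The other bins of the span contacted the same bin less. The left bin had 101, 164 and 117 contacts, at 0.64, and the middle bin 91, 140 and 105, at 0.37. With relative totals these were 0.36 and 0.51. The next highest pairs of the right bin were with the Lrp8 bins from 107850001 at 1.18 (111, 277 and 199 contacts), 107820001 at 1.13 (179, 330 and 226 contacts) and 107830001 at 0.98 (134, 310 and 158 contacts). In the left core the right bin was at 0.64 with the Glis1 start bin (edgeR adjusted p 0.000104), on 43, 85 and 63 contacts. It was also at 0.64 with the bin from 107440001 (edgeR adjusted p 0.000247), on 34, 109 and 51 contacts. With relative totals these pairs were at 0.23 and 0.24 and were not called. These p-values treat the expectation as known and cover only the spread between libraries.

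The Lrp8 and Glis1 bins were then viewed from the bins beside the span. Both were chosen as the highest core partners of the span on their side, so these values are a description without a test. The Lrp8 bin was at 0.99 ± 0.08 from the span, 0.53 ± 0.02 from the 3 bins on its left and 0.84 ± 0.15 from the 3 bins on its right (SD, n = 3). With relative totals the values were 0.77 ± 0.05, 0.32 ± 0.07 and 0.35 ± 0.02. Viewpoints shifted 10 and 20 kb to the right, which share bins with the span, were at 1.17 and 1.19, and at 0.85 and 0.73 with relative totals. The peak of contact with this bin was thus at the right end of the span and the bins just beyond it. The Glis1 bin was at 0.47 ± 0.08 from the span, 0.73 ± 0.18 from the 3 bins on the left and 0.46 ± 0.33 from the 3 bins on the right (SD, n = 3). The libraries' values overlapped between viewpoints. With relative totals they were 0.32 ± 0.10, 0.56 ± 0.17 and 0.05 ± 0.31. The span thus lay between its neighbours, with the left bins above it and the right bins below it on average.

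**Figure D3:**
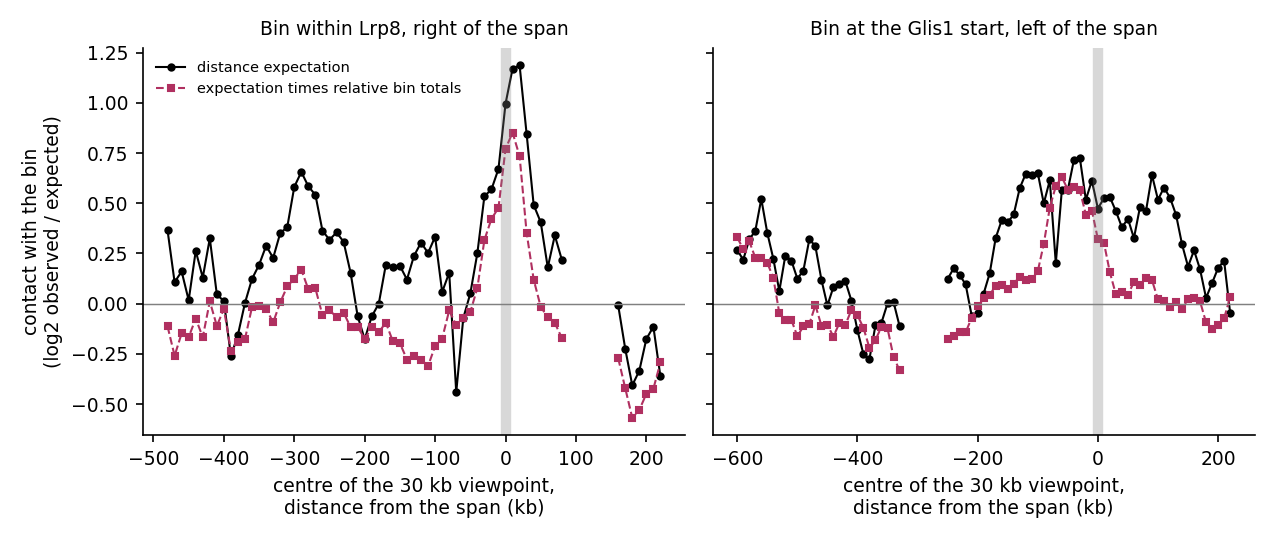
Mean log2 observed over expected contact of the highest core partner bin on either side with every 30 kb core viewpoint, over 3 wild-type libraries. The left panel shows the partner right of the span, in Lrp8, and the right panel the partner left of it, at the Glis1 start. The solid line uses the distance expectation, the dashed line relative bin totals, and gaps are viewpoints too near the bin. The Lrp8 curve is highest between 0 and 20 kb; the Glis1 curve has no peak at the span.

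Over genes, the values were mixed on both sides of the span. Each gene is given by all its bins, and 29 genes were measured: 10 were above expectation in all 3 libraries, 11 below and 8 mixed. None reached an adjusted p below 0.345 in the exact sign-flip test, whose smallest unadjusted p is 0.25. Their median was -0.04, and -0.01 with relative totals, under which 10 of the 29 changed sign. Genes share bins and neighbouring bins share contacts, so they are not independent.

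Right of the span Lrp8 had 2533, 4456 and 3186 contacts, at 0.57 ± 0.06 (SD, n = 3) and 0.42 with relative totals. Magoh was at 0.25 ± 0.06 and Czib, a zinc-binding protein gene, at 0.19 ± 0.10, also above expectation in every library. Cpt2 was at -0.11 ± 0.05, and at 0.03 with relative totals. Outside the core, Echdc2 was at 0.22, Podn at 0.09 and Slc1a7 at 0.05. Zyg11b, which encodes a substrate receptor of a ubiquitin ligase, was at -0.39, Zyg11a at -0.28 and the sterol carrier gene Scp2 at -0.28. With relative totals Echdc2 was at 0.42, Podn at -0.10, Slc1a7 at -0.35, Scp2 at -0.01, and Zyg11a and Zyg11b at 0.33 and 0.23, so 4 of these 6 changed sign. Of the 3 non-coding genes of the authors' table, which lie between the span and Lrp8, 4933424M12Rik was at 0.29 ± 0.02 and Lrp8os3 at 0.28 ± 0.02, whereas Gm12907, the nearest of the 3 to the span, was at -0.04 ± 0.01 (SD, n = 3).

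Left of the span Dmrtb1 had 3049, 4422 and 4069 contacts, at -0.38 ± 0.13 (SD, n = 3) and -0.25 with relative totals. It is the protein-coding gene closest to the span, and was below expectation, which already allows for distance, in 3 of 3 libraries. Its bins include the low-coverage bin from 107690001. Glis1, with 2947, 5322 and 3936 contacts, was near expectation over its whole length, at -0.08 ± 0.06 (SD, n = 3), despite its high start bin. Of the 13 genes beyond Glis1, 3 were above in all libraries, 4 below and 6 mixed. The highest were the acyl-CoA thioesterase gene Acot11 at 0.73, Cdcp2 at 0.31 and the mitochondrial ribosomal protein gene Mrpl37 at 0.20. With relative totals Acot11 was at 0.20, and Cdcp2 and Mrpl37 turned to -0.38 and -0.57. The lowest were the deiodinase gene Dio1 at -0.15, Yipf1 at -0.14 and Tmem59 at -0.14. The authors' deposited table gives regressions of expression on genotype over 9 RNA-seq samples, 3 of them heterozygous. In that regression Dmrtb1 had a p-value of 0.0229 (FDR 0.137), Lrp8 0.590 and Glis1 0.663.

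Whether the balance is particular to the span was asked with the bins beside it. Left minus right was -0.10 ± 0.10 for the 3 bins on the left and -0.47 ± 0.01 for the 3 bins on the right (SD, n = 3). The span differed from the bins on its left by -0.43 ± 0.16 (SD, n = 3; exact sign-flip p 0.25, the smallest possible), lower in 3 of 3 libraries. From the bins on its right it differed by -0.07 ± 0.07 (SD, n = 3), no more than the spread, and that sign reversed in 3 of the 4 other expectations and flank widths tried. The flanks of the neighbours include the span. Of 38 other viewpoints of the core that share no bin with the span, 0 were lower than the span, and 3 lay as far from 0 on the other side, up to 0.66. Viewpoints shifted 10 and 20 kb to the right were lower still, at -0.64 and -0.68, and none farther right has 200 kb of core beside it. With relative totals 3 of the 38 were lower and 9 as far from 0. In the core captured on chromosome 2, 11 of 146 viewpoints lay as far from 0, and 14 with relative totals. A balance of this size was therefore not particular to the span.

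**Figure D4:**
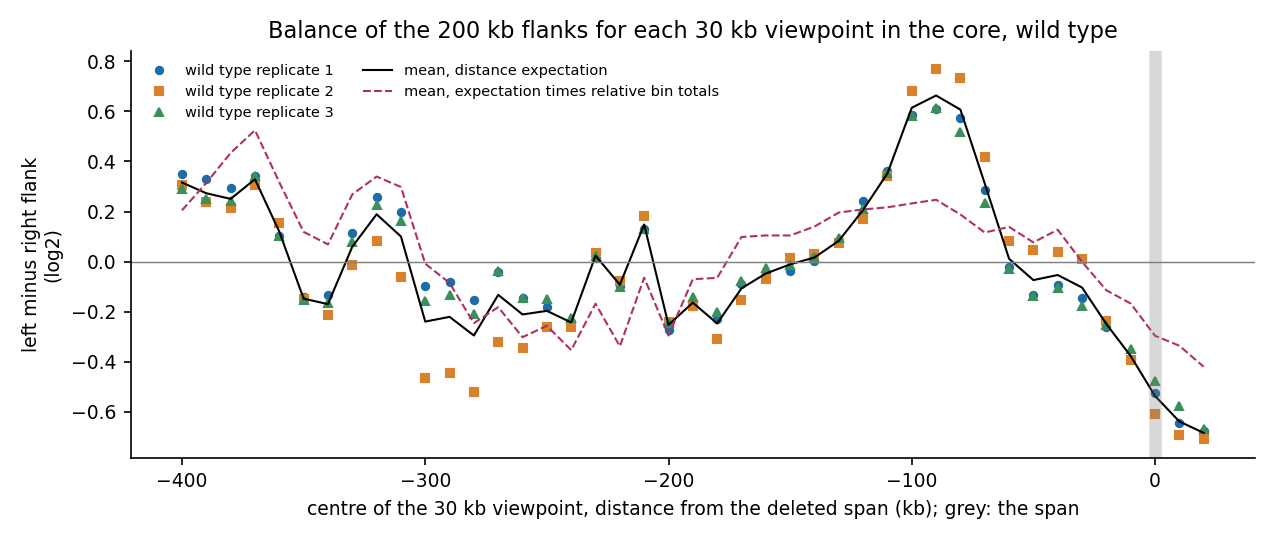
Left minus right log2 contact with the 200 kb flanks for every 30 kb viewpoint of the core, against its distance from the span; points are the 3 wild-type libraries, the solid line their mean and the dashed line the mean with relative bin totals. The values vary in sign farther left, have their maximum of 0.66 at 90 kb left of the span, and fall from there to -0.54 at the span and -0.68 at 20 kb to the right.

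Homozygous libraries were used to check the loss. The span's contacts were 3.61% ± 0.053 of the region's contacts in wild type and 1.14% ± 0.044 in homozygotes (SD, n = 3 each; exact permutation p 0.1, the smallest possible). The middle bin kept 0.180% of its wild-type level, the right bin 0.450% and the left bin 88.2%. The 2 wholly deleted bins had 66, 105 and 61 contacts left outside the span. In edgeR's comparison of genotypes 1.37% of 30138 pairs were lower in homozygotes and 0.0763% higher, with the same adjusted p threshold. The 2 wholly deleted bins had 395 tested pairs, all lower; they passed the count filter through their wild-type counts alone, so this direction was fixed and is no test. The Lrp8 bin had 193, 395 and 270 contacts with the right bin of the span in wild type and 1, 1 and 1 in homozygotes. With the middle bin it had 91, 140 and 105 against 0, 1 and 0. With the left bin the genotypes overlapped, at 101, 164 and 117 against 81, 168 and 90.

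Beside the deletion the same Lrp8 bin changed less. Its contact with the next bin right of the span was 249 ± 34.2 per 1000000 contacts of the region in wild type and 170 ± 24.7 in homozygotes (SD, n = 3 each). With the next bin left it was 159 ± 4.84 and 182 ± 10.6. The groups did not overlap for either bin, lower on the right and higher on the left in homozygotes. The Lrp8 bin was chosen for its high wild-type contact with the span, which favours lower values in homozygotes. These values are therefore a description without a test. The next bin left lies closer to the Lrp8 bin once the deleted sequence is gone, so its distance and the genotype cannot be told apart.

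**Figure D5:**
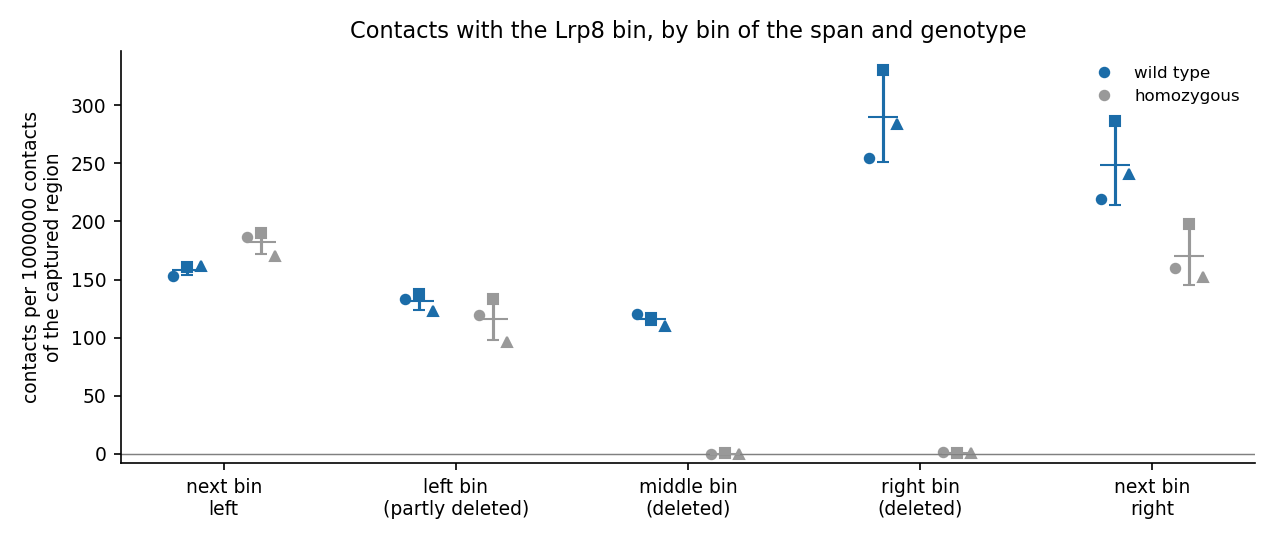
Contacts of the Lrp8 bin with each bin of the span and the bins beside it, per 1000000 contacts of the captured region; symbols are libraries (circle, square and triangle for replicates 1 to 3), horizontal marks are means and bars are SD. The middle and right bins of the span fall to about 0 in homozygotes, the left bin overlaps between genotypes, and the bins on either side do not overlap.

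The left bin of the span remained in homozygotes and its balance was compared between genotypes. Within 200 kb it had 2743 left and 2011 right contacts in wild-type replicate 1, 4010 and 3066 in replicate 2, and 3570 and 2559 in replicate 3. In homozygotes it had 1847 and 2660, 3316 and 4947, and 2625 and 3570. The left count was the larger in every wild-type library and the right count in every homozygous library. The flanks are those of the whole span, so this bin adjoins the left flank. In wild type the other 2 bins of the span separate it from the right flank. These counts are therefore not at matched distances. At reference distances left minus right went from -0.48 ± 0.05 to -1.38 ± 0.04 (SD, n = 3 each), a difference of -0.90 (exact permutation p 0.1, the smallest possible). The deletion brings the right flank closer to this bin. With homozygous distances shortened by 2 bins the difference was -0.03 (exact permutation p 0.7). With 3 bins it reversed to 0.38 (exact permutation p 0.1), with distances held at no less than 1 bin. The ends of the deletion within the bins are unknown and the result depended on the shortening. A change beyond the shorter distance was therefore not measurable here. In edgeR's comparison 13 of the 365 tested pairs of the left bin were lower in homozygotes and 2 higher. Over all pairs 1.37% were lower and 0.0763% higher, but 395 of these 412 lower pairs were those of the wholly deleted bins. Of the 29378 tested pairs without a bin of the span 4 were lower and 21 higher. With the replicate block 33 of the 365 pairs of the left bin were lower and 3 higher, and DESeq2 called 2 of the 365. For the pairs without a bin of the span the block gave 23 lower and 67 higher.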

How the data were processed

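The capture Hi-C values are counts of contacts between 10 kb bins as the authors deposited them, 1 file a library and not normalized. Per the labels the Arima kit was used, followed by Agilent SureSelect capture; the build is mm10, per the submitters' processing notes, and the steps of alignment and filtering are not given in the sources used here. File names give the genotype and replicate that tie a file to its library. The authors' deposited table of regressions gives a t statistic and a slope as scores, and p-values. ChIP-seq was not analysed here.

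The region joined neighbouring bins with a mean total of at least 20% of the 99th percentile across gaps below 100 kb, and the core is its longest stretch above 2 times the region's mean. The expected count of a pair was the mean of pairs at the same distance and in the same class (both, 1 or no bin in the core), without pairs of the span. Relative totals multiply this by both bins' totals over their class mean. On simulated data of a core alone they recovered the difference between flanks but shifted the level of both. Signs and calls under relative totals therefore depend on that shift and are given as descriptions. Pairs averaging 5 or more contacts entered edgeR 4.0.16 in R 4.3.3. Against the expectation, entered as an offset, the F statistic of the intercept was formed from the quasi-likelihood fit by hand, since the function for it does not take a model with only an intercept. Genotypes were compared after TMM normalization. Single values were tested with exact sign-flip tests within the 3 libraries or exact permutation tests of 3 against 3, all two-sided, with Benjamini-Hochberg adjustment within a family. Scripts used Python 3.11.15, numpy 2.4.6 and scipy 1.17.1.

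Alternatives were DESeq2 1.42.0, other filters, thresholds, flanks and bin sizes, balanced matrices (200 rounds), the decay of chromosome 2, relative totals, and leaving out each library. Views of the Lrp8 and Glis1 bins from other viewpoints, and relative totals for the neighbours and the distance classes, were added after the values were seen. The members and lists were chosen with earlier results of these data known. Named are the genes of the authors' table and protein-coding genes by position (3 highest and 3 lowest where many), and the 5 highest and 5 lowest core bins on either side whose sign was the same in all 3 libraries. Genotypes were compared unpaired, with a replicate block as the alternative. Same-numbered libraries of the 2 genotypes correlated at 0.11 or less, but replicate 2 had the highest share of contacts in the region in both.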

Additional observations from a re-analysis of the deposited data

How the results depend on the processing

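Left minus right within 200 kb stayed negative in every setting run, but its size moved: -0.35 with balanced core matrices, -0.30 with relative totals, -0.38 with flanks of 500 kb, -0.63 without the nearest 2 bins, and, added after the values were seen, -0.20 and -0.22 with relative totals and flanks of 500 and 100 kb. Unpaired, that is with no replicate block, it was -0.54 (exact permutation p 0.1). Relative totals gave differences of -0.086, -0.50 and 0.17 at 10 to 50, 60 to 100 and 210 to 400 kb, and reversed those at 410 to 600 kb (-0.31) and over 600 kb (-0.24). The span minus the 3 bins on its right reversed to 0.033 with balanced matrices, 0.028 with flanks of 100 kb and 0.062 with relative totals. The cause of these moves was not tested.

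The percentages of span pairs called higher and lower were 10.6 and 0.00 on the right and 4.44 and 0.556 on the left with relative totals, and 4.55 and 1.52 on the right and 0.00 and 5 on the left with a log2 threshold of 1. With pairs of 20 kb the left had 0.00% higher and the right 0.00% lower. DESeq2 gave 0.556% higher and 8.89% lower on the left and 6.06% lower on the right. Leaving out 1 library gave 0.556% to 2.22% higher on the left and 6.06% to 15.2% lower on the right, the lowest of each without wild-type replicate 2. With balanced matrices 4 core genes in place of 7 were below expectation in all 3 libraries. Single genes gave 181 alternative values, of which 143 moved less than the spread, 29 more and 9 reversed among genes whose sign was the same in all 3 libraries: Cyb5rl (-0.65), Cdcp2 (-0.38), Yipf1 (0.20), Cpt2 (0.026), Zyg11a (0.33) and Zyg11b (0.23) with relative totals, and Yipf1 (0.085), Gm12907 (0.0091) and Cpt2 (0.091) with balanced matrices. Mrpl37, Ndc1, Slc1a7 and Podn, whose libraries differed in sign, also changed the sign of their mean with relative totals (-0.57, 0.05, -0.35 and -0.10).

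The homozygous level of the span was 31.6% of wild type, 30.3% per library total, and 88.2%, 0.180% and 0.450% for the left, middle and right bin alone. The partly deleted bin's difference of -0.90 was -0.035 and 0.38 after shortening by 2 and 3 bins, and -1.14 with flanks of 100 kb. Its called pairs went from 15 to 6 without a count filter, 2 with DESeq2, and 4 to 12 when a library was left out. The lowest of these came without wild-type replicate 3. Of the pairs of the wholly deleted bins 63.4% were called lower without a count filter; with it the direction is fixed by the choice of pairs. Whether same-numbered libraries of the 2 genotypes share a batch is not given. They correlated at 0.03, 0.11 and 0.02, and wild-type replicate 3 correlated best with homozygous replicate 1. The share of a library in the region was 12.4%, 17.2% and 13.0% in wild-type replicates 1 to 3. In homozygous replicates 1 to 3 it was 11.9%, 16.2% and 12.9%, so replicate 2 was the highest in both genotypes. A shared batch was not tested. With the replicate block 36 pairs of the partly deleted bin were called, its difference was -0.90 (exact sign-flip p 0.25), and the span's level 31.6%. Outside the core few contacts per pair limit what can be measured, and homozygous distances depend on the unknown ends of the deletion within the bins.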

Other observations

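Outside the core the span also had partner bins above expectation, on few contacts. Among bins with at least 20 contacts in every wild-type library, the highest on the left was chr4:104900001-104910000 in Fyb2, with 27, 25 and 24 contacts, and a log2 ratio of observed to expected contacts of 1.21 ± 0.34 (SD, n = 3). Next came chr4:106610001-106620000 in Lexm at 1.11 ± 0.10 (45, 77 and 63 contacts) and chr4:106800001-106810000 in Acot11 at 1.04 ± 0.07 (53, 85 and 63 contacts). On the right the highest was chr4:109400001-109410000 in Ttc39a, with 30, 50 and 40 contacts, at 1.29 ± 0.11 (SD, n = 3). The bins from 110020001 and 110070001, with no gene in the table, followed at 1.17 and 0.94. With relative totals all 6 were between 0.37 and 0.65, and the count minimum itself selects high bins, so no test is given.

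The contacts that the 2 wholly deleted bins kept in homozygotes numbered 66, 105 and 61. Of these 7, 14 and 16 were with the bin next to the span on the right (10.6%, 13.3% and 26.2%), where that bin took 6.91% ± 0.388 of the whole span's wild-type contacts (SD, n = 3). Another 4, 2 and 2 were with the bin next to the span on the left, and 55, 89 and 43 with all other bins.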
